A study of Mus musculus with 6 samples.

Results

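The genes of the matrix metalloproteinases (Mmp), of the ADAMTS proteases with the related ADAMTS-like proteins, and of the tissue inhibitors of metalloproteinases (Timp) were read in muscle stem cells (MuSCs). Members were the protein-coding genes of the deposited table whose symbols begin with *Mmp* and a digit, with *Adamts*, or are *Timp1* to *Timp4*, without use of their values. The rule found 40 of 25166 genes in the table, 15330 of them protein-coding. They were 15 *Mmp*, 16 *Adamts*, 5 *Adamtsl* and 4 *Timp* genes.

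The samples were freshly isolated MuSCs of the strain C57BL/6 in 2 groups with 3 libraries each. Sirt6mKO mice carry floxed *Sirt6* alleles with exons 4 to 6 between loxP sites, and a constitutive Cre driven by *Pax7* (Pax7-ICNCre) that removes them in the whole skeletal muscle lineage, so that myofibers lose the gene as well. SIRT6 is a nuclear deacetylase of histones. The controls (Ctrl) are wild type in the labels, whereas the supplementary legends of the study describe Cre-negative mice with the same floxed alleles. The labels give neither age nor sex, and the supplementary legend for these libraries gives males of 12 weeks. Muscle was digested with dispase and collagenase, cells with Sca1, CD45 or CD31 on the surface were depleted, and cells positive for integrin-α7 and CD34, or for a reporter, were sorted. RNA of a small pool of sorted cells went into each library.

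Mmp proteins are zinc proteases that are made as inactive zymogens and cut collagens, gelatin, laminins and surface proteins once their propeptide is removed. ADAMTS proteases are secreted relatives with thrombospondin repeats that cut proteoglycans, process procollagens or act on microfibrils, and the ADAMTS-like proteins share those repeats but lack the protease. TIMP proteins bind the active site of these enzymes, and TIMP2 also takes part in the activation of pro-MMP2 by MMP14 at the cell surface. A MuSC lies between the myofiber and its basal lamina, where such enzymes open the matrix for migrating cells.

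The deposited values, called signal here, are scaled reads per gene: each library has its own size factor, by which its reads were divided before rounding. By these factors, which were estimated from the values, the libraries hold 1267027 to 3209958 reads. A single read thus adds 0.729 to 1.79 to the signal. The shallowest library was Ctrl replicate 3. *Sirt6* itself had a signal of 19, 20 and 13 in Sirt6mKO and of 18, 17 and 20 in Ctrl (log2 fold change -0.10, SE 0.29, limma adjusted p = 0.91), and a sum over the gene does not separate its deleted exons from the others. Markers of MuSCs were high in every library, with a summed signal of 9 genes of 9139 to 9231 in Sirt6mKO and 10522 to 11642 in Ctrl. Endothelial (13 to 40) and immune (37 to 84) markers were low, but only 6 of 7 and 4 of 8 listed markers had a row. *Cd68* made up most of the immune sum. *Pecam1* was the highest endothelial marker (22, 27 and 24 in Sirt6mKO, 11, 4 and 29 in Ctrl), and *Tie1* and *Cldn5* were at or near 0. Some marker lists of other cells were higher in Sirt6mKO, and their values are given with the matrix genes below. In such bulk samples, fewer cells of a type and less RNA per cell cannot be told apart.

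Of the 40 members, 26 reached the mean signal of 5 that a test required. Among these, 12 reached a mean of at least 100 and the other 14 did not. Per kilobase (kb) of annotated exon, which makes genes comparable, the order of mean levels over all 6 libraries began with *Mmp2* (320.2), *Timp2* (296.9), *Adamts1* (155.3), *Adamts10* (129.3) and *Adamts5* (62.9). The order of the first pair differed between the groups, as *Mmp2* (410.6) was above *Timp2* (263.6) in Ctrl and *Timp2* (330.3) above *Mmp2* (229.9) in Sirt6mKO, in every library of each group. *Mmp14*, *Adamts20*, *Timp3*, *Adamts8* and *Adamts9* completed the first 10, which held 90.1% of the summed signal per kb of all members. *Mmp2*, *Timp2*, *Adamts1* and *Adamts10* alone held 71.3%. A secreted gelatinase, an inhibitor and a pair of ADAMTS proteases therefore made up most of the RNA of these genes.

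**Figure D1:**
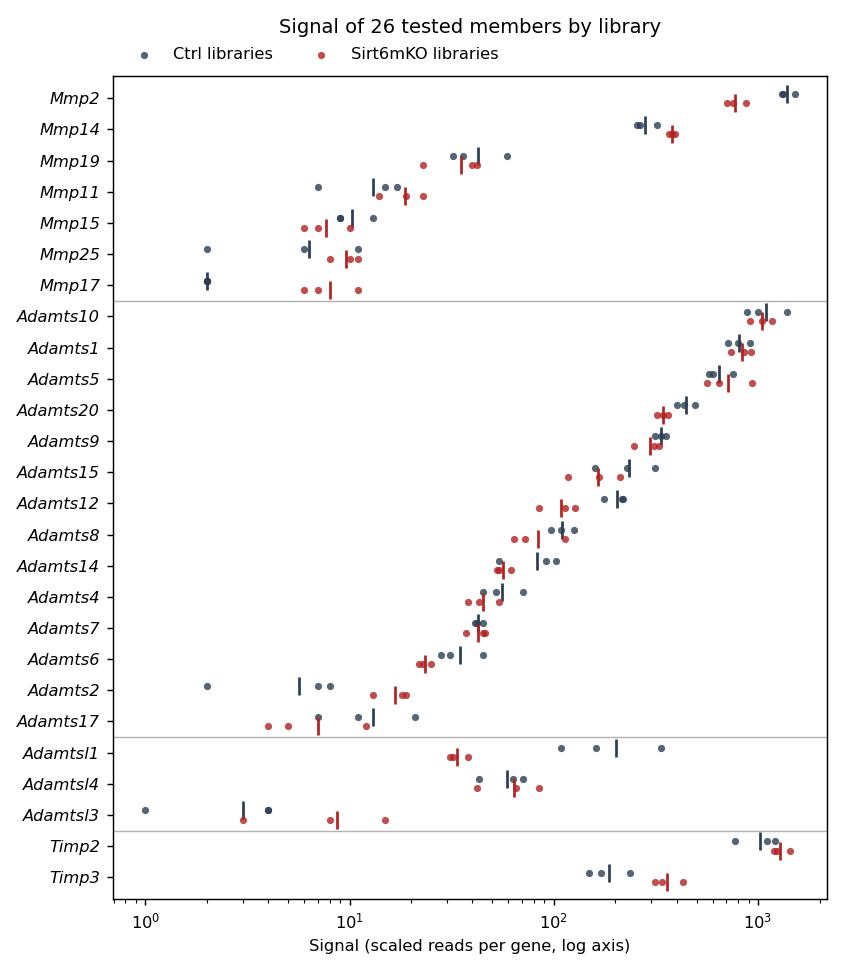
Signal of the 26 tested members on a log axis, with 1 point per library, blue for Ctrl and red for Sirt6mKO, and a vertical tick at each group mean. For *Mmp2*, *Adamts12*, *Adamts20*, *Adamts6* and *Adamtsl1* the red points lie to the left of all blue ones, and for *Mmp14*, *Mmp17*, *Adamts2* and *Timp3* to the right of them.

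Sirt6mKO was compared with Ctrl by limma-trend on log2(signal + 1) over 14227 genes, and a gene was called changed at an adjusted p of at most 0.05 and at least a 2-fold difference. Of the 26 members tested, 1 was called lower (*Adamtsl1*) and 0 higher, beside 2.59% of all tested genes called in either direction, 1.02% lower and 1.57% higher. At an unadjusted p under 0.05 stood 10 of 26 members, beside 18.1% of all tested genes. At the adjusted p alone, *Mmp2*, *Adamts12* and *Adamtsl1* fell and *Timp3* rose, which makes 4 of 26 members beside 4.52% of all tested genes (1.88% lower and 2.64% higher). The groups did not overlap for 4 members that were higher and 5 that were lower in Sirt6mKO, beside 11.1% and 10.1% of all tested genes (21.2% in either direction). *Mmp17*, among these 4 and among the 10 at an unadjusted p under 0.05, reached the required mean only through Sirt6mKO. The median log2 fold change of the members was -0.11, that of all tested genes 0.0019. With 3 libraries in each group an exact permutation test of a single gene cannot go below p = 0.1, so p-values come from the fit across all genes. They rest on the spread between these libraries, which that fit moderates toward a trend over all genes.

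**Figure D2:**
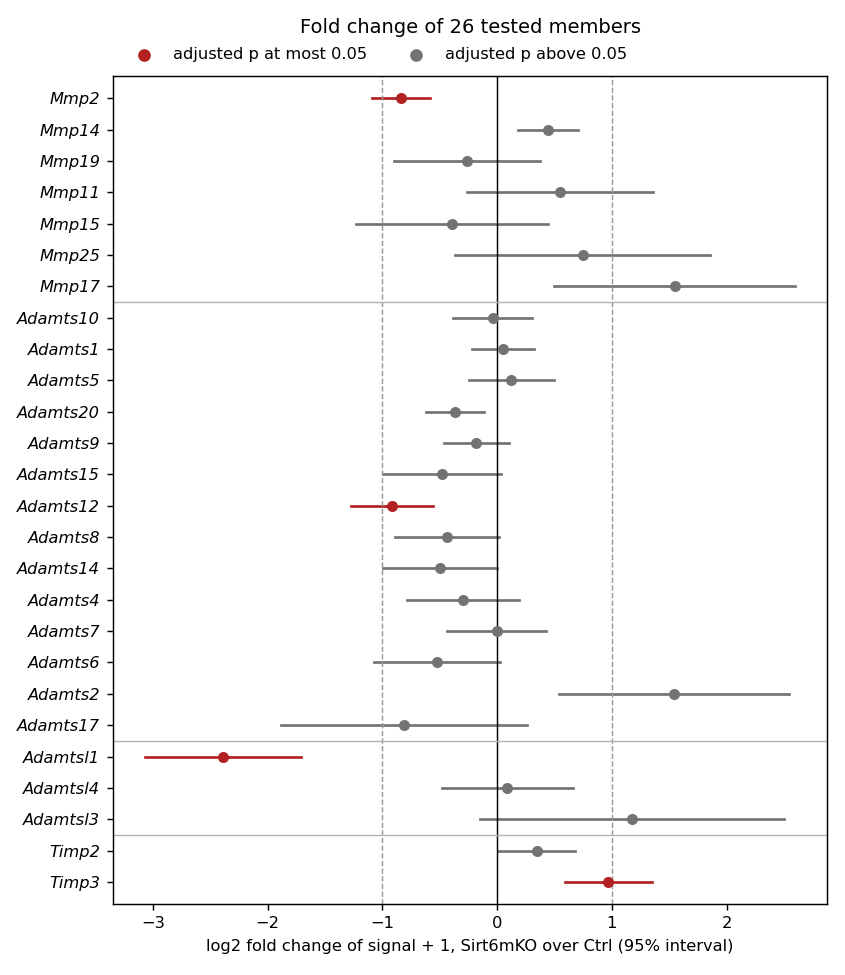
Log2 fold change of signal + 1 (Sirt6mKO over Ctrl) of each tested member with its 95% interval, red where the adjusted p is at most 0.05, with dashed lines at a 2-fold difference. *Mmp2* (-0.84), *Adamts12* (-0.92) and *Adamtsl1* (-2.39) lie below 0 and *Timp3* (0.97) above it, and only *Adamtsl1* among these 4 lies beyond a dashed line.

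*Mmp2* encodes the gelatinase that degrades denatured collagen and the type IV collagen of basement membranes. It had a signal of 705, 870 and 750 in Sirt6mKO and of 1327, 1516 and 1309 in Ctrl. The lowest Ctrl library was thus well above the highest Sirt6mKO library. The means were 775.0 ± 85.3 and 1384 ± 115 (SD, n = 3 each), 1.79-fold lower in Sirt6mKO (log2 fold change -0.84, SE 0.12, limma adjusted p = 0.0017). The difference did not rest on a single library, since leaving out each in turn gave -0.92 to -0.77 with an adjusted p of 0.0037 to 0.02. Even so, *Mmp2* stayed the most abundant Mmp gene of every library. It lies on chromosome 8 (chr8:92827291-92853420 of GRCm38, plus strand). The other gelatinase gene, *Mmp9*, had at most 1 read per library.

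*Mmp14* encodes the membrane-anchored protease that cleaves fibrillar collagen and activates pro-MMP2. In Sirt6mKO its signal was 379, 392 and 368, compared with 321, 265 and 256 in Ctrl. The groups did not overlap, and the direction was opposite to that of *Mmp2*. The log2 fold change was 0.44 (SE 0.12) and missed the threshold at an adjusted p of 0.058 in limma. Without Ctrl replicate 1 the change was 0.54 and passed it (adjusted p = 0.027). This was 1 of 6 fits with a library left out, and the others gave an adjusted p of 0.12 to 0.2.

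*Mmp17*, which encodes a protease held at the membrane by a lipid anchor, was scarce. The signal reached 6, 7 and 11 in Sirt6mKO and 2 in each Ctrl library, none of which had more than 3 reads. Its mean of 5.0 over all libraries just met the filter, and only through Sirt6mKO (mean 8.0, against 2.0 in Ctrl). Summed over the libraries these were 28 reads against 6, a ratio of 3.55 after scaling. The exact 95% interval of 1.44 to 10.5 covers counting error only. As the filter favours a higher value in Sirt6mKO here, the interval describes the reads and is no test of a difference. The limma fit gave an adjusted p of 0.1. The other tested Mmp genes were *Mmp11*, *Mmp15*, *Mmp19* and *Mmp25*, with log2 fold changes of -0.39 to 0.75 and overlapping groups. Of the 7 tested Mmp genes 4, with *Mmp17* among them, were above 0 on the log2 scale and 3 below. The median log2 fold change of the 7 was 0.44. It fell to 0.11 when the required mean signal was 1 and to -0.20 when it was 50, so the family as a whole had no direction that held.

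The Timp genes were read by the same measure. *Timp3* encodes the inhibitor that binds to the matrix and blocks ADAMTS proteases and ADAM sheddases besides the Mmp proteins. It had 337, 312 and 430 in the Sirt6mKO libraries and 237, 170 and 149 in the Ctrl libraries. Every Sirt6mKO library was above every Ctrl library. The means were 359.7 ± 62.2 and 185.3 ± 46.0 (SD, n = 3 each), with a log2 fold change of 0.97 (SE 0.17, limma adjusted p = 0.0077), just under 2-fold. The 2-fold line was crossed without Sirt6mKO replicate 1 (1.01), without Sirt6mKO replicate 2 (1.06) and without Ctrl replicate 1 (1.16), and with each library left out in turn the highest adjusted p was 0.047. *Timp3* lies on chromosome 10 (chr10:86300372-86349506, plus strand) inside *Syn3*, a synapsin gene on the other strand, and 21.3% of its exon bases are also exon of that gene. The signal of *Syn3* was 1 to 5 in every library.

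*Timp2*, the inhibitor that also bridges MMP14 and pro-MMP2, was the most abundant Timp gene. It reached 1235, 1432 and 1193 in the Sirt6mKO libraries and 1209, 1101 and 771 in the Ctrl libraries. The lowest Sirt6mKO library was below the highest Ctrl library, and the log2 fold change of 0.35 (SE 0.15) did not pass the test (limma adjusted p = 0.26). *Timp1*, the soluble inhibitor known from inflamed and injured tissue, was near the limit of detection, with a signal of 5, 4 and 9 in Sirt6mKO and 4, 2 and 2 in Ctrl. *Timp4*, an inhibitor best known from the heart, had 3, 1 and 2 in Sirt6mKO and 0 in all Ctrl libraries. Neither was tested, and with at most 10 reads in any library no fold is given. Both lie inside synapsin genes on the opposite strand, *Timp1* in *Syn1* and *Timp4* in *Syn2*. *Syn2* had a signal of 42 to 50 in Sirt6mKO and 9 to 26 in Ctrl and passed the test (limma adjusted p = 0.033). The exons of *Timp4* and *Syn2* coincide over 90 bases. The authors left out reads that overlap several genes, and whether counting used the strand of the reads is not stated.

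Since *Mmp2* fell and *Timp3* rose, the sums over each family were compared as a description, per kb of exon and without a test. The sum of the Mmp genes was 298.3, 349.5 and 303.4 in Sirt6mKO and 477.3, 514.5 and 450.5 in Ctrl. That of the Timp genes was 364.5, 410.5 and 369.5 in Sirt6mKO and 343.9, 305.7 and 218.4 in Ctrl. The Timp sum was therefore above the Mmp sum in every Sirt6mKO library, with ratios of 1.22, 1.18 and 1.22, and below it in every Ctrl library, with ratios of 0.721, 0.594 and 0.485. Most of both sums came from 1 gene each, as *Mmp2* made up 70.1 to 73.8% of the Mmp sum in Sirt6mKO and 82.5 to 87.4% in Ctrl, and *Timp2* at least 82.9% of the Timp sum throughout. The share of *Mmp14* in the Mmp sum was 18.8 to 21.3% in Sirt6mKO and 8.64 to 11.3% in Ctrl. These are ratios of RNA, which do not measure protein or enzyme activity.

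**Figure D3:**
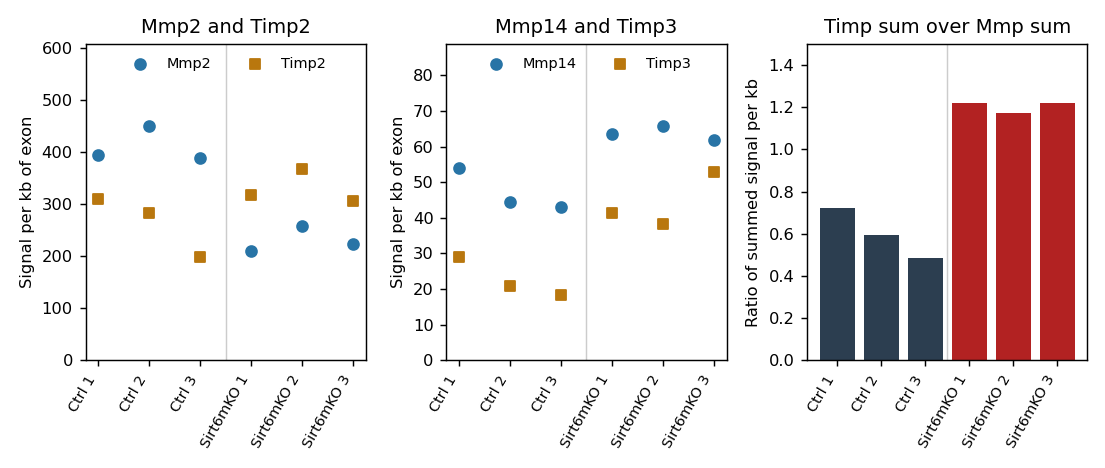
Signal per kb of exon of *Mmp2* and *Timp2* (left) and of *Mmp14* and *Timp3* (middle) in each library, and the ratio of the summed Timp genes to the summed Mmp genes (right, bars from 0). The ratio is 0.485 to 0.721 in the 3 Ctrl libraries and 1.18 to 1.22 in the 3 Sirt6mKO libraries.

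Among the ADAMTS genes, the proteases that cut aggrecan and versican were the most numerous. *Adamts1* had a signal of 737, 854 and 921 in Sirt6mKO and of 712, 801 and 916 in Ctrl, with overlapping groups and a log2 fold change of 0.05 (95% interval -0.22 to 0.32). *Adamts5*, the neighbour of *Adamts1* on chromosome 16 at a distance of 53060 bases, had 562, 647 and 931 in Sirt6mKO and 577, 605 and 753 in Ctrl (log2 fold change 0.12, interval -0.25 to 0.49). A 2-fold difference lies outside both intervals. *Adamts9* had 247, 329 and 311 in Sirt6mKO and 354, 312 and 335 in Ctrl, and *Adamts8* had 64, 72 and 114 against 108, 126 and 97, both with overlapping groups. *Adamts20*, a relative of *Adamts9* known for its role in pigment cell migration, was lower in each Sirt6mKO library (319, 362 and 344) than in any Ctrl library (402, 432 and 493), but its log2 fold change of -0.37 (SE 0.12) missed the threshold in limma (adjusted p = 0.1). The 7 tested proteoglycan-cutting members, with *Adamts4* and *Adamts15*, ranged from -0.48 to 0.12 with 2 above 0 and 5 below. Of these 7, 0 passed the adjusted p, beside 4.52% of all tested genes. At an unadjusted p under 0.05 stood 1, beside 18.1% of all tested genes.

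*Adamts12* and *Adamts7* encode a pair of related proteases that cleave the cartilage oligomeric matrix protein. *Adamts12* had a signal of 85, 113 and 127 in Sirt6mKO and of 177, 219 and 215 in Ctrl. The groups were apart, with means of 108.3 ± 21.4 and 203.7 ± 23.2 (SD, n = 3 each). The log2 fold change was -0.92 (SE 0.16, limma adjusted p = 0.0076). It passed a 2-fold difference without Sirt6mKO replicate 3 (-1.04) and without Ctrl replicate 1 (-1.02), and it was smallest without Sirt6mKO replicate 1 (-0.75, adjusted p = 0.048). *Adamts7* had a mean signal of 42.7 in both groups (log2 fold change -0.01, SE 0.20). The difference between these relatives was not tested. *Adamts12* lies on chromosome 15 (chr15:11064790-11349231, plus strand).

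*Adamts10*, *Adamts6* and *Adamts17* encode proteases associated with fibrillin microfibrils. *Adamts10* was the most abundant of them, with a signal of 1049, 1176 and 910 in Sirt6mKO and 1391, 880 and 997 in Ctrl (log2 fold change -0.04, interval -0.39 to 0.31). *Adamts6* had 25, 22 and 23 in Sirt6mKO and 28, 31 and 45 in Ctrl, groups that did not overlap but did not pass the test (log2 fold change -0.52, limma adjusted p = 0.3). All 3 had a log2 fold change below 0. At the adjusted p 0 of 3 passed, beside 4.52% of all tested genes, and also 0 at an unadjusted p under 0.05, beside 18.1%.

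*Adamts2*, *Adamts3* and *Adamts14* encode the proteases that remove the amino-terminal propeptides of fibrillar procollagens. *Adamts2* had a signal of 13, 18 and 19 in Sirt6mKO and of 7, 8 and 2 in Ctrl. Every Sirt6mKO library was above the Ctrl libraries, and at these few reads the log2 fold change was 1.54 (SE 0.46, limma adjusted p = 0.086). *Adamts14* was between 53 and 62 in Sirt6mKO and between 54 and 102 in Ctrl, with a log2 fold change of the opposite sign (-0.50, limma adjusted p = 0.27). *Adamts3* was too low for the test. In the family as a whole, the median log2 fold change was -0.33. Of the 14 tested *Adamts* genes 11 were below 0, beside 7054 of all 14227 tested genes. Only *Adamts12* passed the adjusted p, beside 4.52% of all tested genes. At an unadjusted p under 0.05 stood 4 of 14, beside 18.1% of all tested genes.

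*Adamtsl1*, which encodes punctin, an ADAMTS-like protein of the extracellular matrix, changed most among the 26. The Sirt6mKO libraries had a signal of 32, 38 and 31 and the Ctrl libraries one of 108, 335 and 161. The Sirt6mKO libraries were close to each other, whereas the Ctrl libraries spread widely, all above them. The means were 33.7 ± 3.79 and 201.3 ± 118.8 (SD, n = 3 each), and the log2 fold change was -2.39 (SE 0.31, limma adjusted p = 0.0011). Without Ctrl replicate 2, the highest library, it was -1.94 (adjusted p = 0.002), and over all libraries left out in turn the adjusted p stayed at or under 0.016. The gene spans a long stretch of chromosome 4 (chr4:85514172-86428385, plus strand) and shares no exon base with *Sh3gl2*, which lies across part of it. The other tested ADAMTS-like genes, *Adamtsl3* and *Adamtsl4*, had log2 fold changes of 1.18 and 0.09 with overlapping groups. *Adamtsl3* reached the required mean signal only through Sirt6mKO (mean 8.67, against 3.0 in Ctrl).

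The remaining 14 members, all below the mean signal of 5, had at most 12 reads in any library, and 8 of them had at most 3 in each. Besides *Timp1*, *Timp4*, *Mmp9* and *Adamts3*, they were the collagenase gene *Mmp13*, the stromelysin gene *Mmp3*, *Mmp16*, *Mmp21*, *Mmp23*, *Mmp24*, *Mmp28*, *Adamts13*, *Adamtsl2* and *Adamtsl5*. *Mmp3* was above 0 in a single library, a Ctrl library with 1 read. *Mmp13* had 0, 1 and 2 in Sirt6mKO and 2, 0 and 0 in Ctrl. *Mmp13*, *Mmp3* and *Mmp9* were thus at or near 0 at this depth in both groups.

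The sequence upstream of a start annotated in RefSeq (GRCm38.p6) was read, and a window of 250 bases was available for 27 of the 40 members. The windows of *Adamts20*, *Mmp11* and *Timp2* lie inside the gene as annotated here. They are 61068, 3994 and 329 bases from its start, and each held a GC box. Motifs were searched on both strands: TGANTCA, the site of AP-1 factors, GGGCGG, the GC box, TATAAA, the TATA box, and CAGCTG, one of the E-boxes that MYOD1 can bind. None of these motifs contains another. The AP-1 motif was in 2 of the 27 windows (7.41%) beside 6.75% of all 32851 windows. The GC box was in 19 (70.4%) beside 32.7%, the TATA box in 5 (18.5%) beside 12.4% and the E-box in 9 (33.3%) beside 13.0%. Each member counted with a single window, whereas the 32851 were not limited to a single window per gene or to protein-coding genes. These percentages therefore compare unlike sets. The 2 windows with the AP-1 motif were those of *Mmp13* and *Mmp3*, both also with a TATA box, and both genes were near 0 here. Their windows are shown beside those of *Timp3* and *Adamts12*, the members past the adjusted p that had one, with the 4 motifs in capitals. For *Timp3* the last 40 bases of the window, which hold its GC box, lie behind the start of the gene in the annotation used here and are left out. A match of letters describes the window and not the use of a site.
Timp3 (chr10:86300162-86300371, plus strand): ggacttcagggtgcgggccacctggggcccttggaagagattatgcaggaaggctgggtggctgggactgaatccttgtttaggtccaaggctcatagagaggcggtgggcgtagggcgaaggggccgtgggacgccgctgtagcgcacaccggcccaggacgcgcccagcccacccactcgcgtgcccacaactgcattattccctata
Adamts12 (chr15:11064523-11064772, plus strand): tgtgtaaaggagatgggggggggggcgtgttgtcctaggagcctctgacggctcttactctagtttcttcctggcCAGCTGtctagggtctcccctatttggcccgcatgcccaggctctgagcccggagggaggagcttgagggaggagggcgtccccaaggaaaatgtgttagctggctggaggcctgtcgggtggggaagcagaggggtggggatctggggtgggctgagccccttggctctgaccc
Mmp13 (chr9:7272264-7272513, plus strand): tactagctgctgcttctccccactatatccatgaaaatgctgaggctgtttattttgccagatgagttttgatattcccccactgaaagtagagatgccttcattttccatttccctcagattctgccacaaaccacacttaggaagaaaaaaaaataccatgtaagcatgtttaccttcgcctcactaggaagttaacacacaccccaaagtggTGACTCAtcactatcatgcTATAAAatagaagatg
Mmp3 (chr9:7445572-7445821, plus strand): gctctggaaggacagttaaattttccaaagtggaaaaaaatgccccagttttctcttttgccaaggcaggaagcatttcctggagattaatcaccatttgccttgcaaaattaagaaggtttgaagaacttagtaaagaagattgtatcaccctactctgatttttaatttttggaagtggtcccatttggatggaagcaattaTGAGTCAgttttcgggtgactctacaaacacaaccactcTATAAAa

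The windows differ in CpG content. The whole window of *Timp3* held 18 CpG and that of *Adamts12* 6, whereas those of *Mmp13* and *Mmp3* held 1 each, beside a median of 6 over all windows with quartiles of 2 and 16. *Adamts12* had a single E-box motif and no match to the other 3. No window was available here for *Mmp2* and *Adamtsl1*, so their upstream sequence was not examined.

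Other genes of matrix proteolysis were read from a list of 64 by role, of which 50 were tested. The list was chosen with earlier results of these data known. In Sirt6mKO 5 were called higher and 0 lower, beside 1.57% and 1.02% of all tested genes. At the adjusted p alone 9 were higher and 1 was lower, beside 2.64% and 1.88% of all tested genes. The median log2 fold change of the 50 was 0.27. Activators of zymogens were not called. *Plau*, the urokinase, was the most abundant per kb of the 5 tested, with a signal of 631, 569 and 713 in Sirt6mKO and 580, 476 and 421 in Ctrl (log2 fold change 0.38, limma adjusted p = 0.15). *Pcsk5*, a proprotein convertase of the furin family, fell from 130, 141 and 111 in Ctrl to 86, 82 and 52 in Sirt6mKO (log2 fold change -0.81, limma adjusted p = 0.035).

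Protease inhibitors outside the Timp family had a median log2 fold change of 0.76 over 8 tested genes. *Serpine2*, the inhibitor of thrombin and plasminogen activators known as protease nexin, had a signal of 256, 241 and 313 in Sirt6mKO and 122, 17 and 14 in Ctrl (log2 fold change 3.07, SE 0.57, limma adjusted p = 0.0092). Ctrl replicate 1 stood well above the others of its group, and the adjusted p was 0.066 without Sirt6mKO replicate 1, 0.052 without Sirt6mKO replicate 2, 0.053 without Ctrl replicate 2 and 2e-06 without Ctrl replicate 1, where the change was 4.03. Robust empirical Bayes ended the calls of *Serpine2* (adjusted p = 0.21) and of the substrates *Nid1* (0.23) and *Col1a1* (0.35). *Cst3*, the cathepsin inhibitor cystatin C, had 159, 176 and 166 in Sirt6mKO and 90, 100 and 72 in Ctrl (0.94, limma adjusted p = 0.0045). *Reck*, a membrane-anchored inhibitor of Mmp proteins, had 113, 113 and 102 in Sirt6mKO and 82, 63 and 66 in Ctrl (0.64, limma adjusted p = 0.041). *Timp3* was therefore not the only gene of a protease inhibitor that was higher in Sirt6mKO. Of these 8, 3 were higher at the adjusted p, beside 2.64% of all tested genes, and for *Serpine2* this depended on the fit. The groups of 5 did not overlap and were higher in Sirt6mKO, beside 11.1% of all tested genes. *Tfpi2*, among these 5, reached the required mean signal only through Sirt6mKO (mean 7.0, against 3.67 in Ctrl).

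Of the 7 tested ADAM sheddase genes, 0 passed the adjusted p, beside 4.52% of all tested genes. The most abundant per kb, *Adam10*, had a log2 fold change of 0.14 (95% interval -0.10 to 0.39). Among genes for docking, induction and clearance of proteases, *Cd44*, a hyaluronan receptor that can hold Mmp proteins at the cell surface, rose at the adjusted p alone (0.53, limma adjusted p = 0.034). *Sparc*, the most abundant of them per kb (*Lrp1* had more signal in all), had 2238, 2061 and 2787 in Sirt6mKO and 3402, 3058 and 2925 in Ctrl (-0.41, limma adjusted p = 0.1). Among proteases of other classes, *Ctsl*, a lysosomal cysteine protease, rose from 461, 480 and 461 to 860, 738 and 904 (0.83, limma adjusted p = 0.0013), while *Htra3*, the most abundant per kb, had a log2 fold change of -0.24 (limma adjusted p = 0.3).

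Of 14 tested substrates 4 were called higher, beside 1.57% of all tested genes. *Col1a2* encodes the second chain of type I collagen and was at 782, 1299 and 1162 in Sirt6mKO and 173, 63 and 65 in Ctrl (log2 fold change 3.55, SE 0.31, limma adjusted p = 8.5e-05). *Bgn*, a small proteoglycan, had 1894, 1500 and 1609 in Sirt6mKO and 1081, 604 and 758 in Ctrl (1.07, limma adjusted p = 0.005). Both passed the adjusted p in all 6 fits with a library left out, but *Bgn* was under 2-fold and lost the call without Sirt6mKO replicate 1 (0.97) and without Ctrl replicate 2 (0.87). *Nid1*, a linker of basement membranes, had 999, 897 and 1370 in Sirt6mKO and 679, 227 and 183 in Ctrl (1.81, limma adjusted p = 0.013), and it lost the call without Sirt6mKO replicate 1 (0.076), Sirt6mKO replicate 2 (0.052) or Ctrl replicate 2 (0.071), and was largest without Ctrl replicate 1 (2.39, adjusted p = 4.8e-05). *Col1a1*, the other chain of type I collagen, had 420, 1063 and 645 against 487, 128 and 81 (1.94, limma adjusted p = 0.047), groups that overlap, and passed in 1 of 6 such fits, the one without Ctrl replicate 1 (2.69). *Col3a1*, the most abundant substrate per kb, had a log2 fold change of 0.06 (95% interval -0.28 to 0.41).

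**Figure D4:**
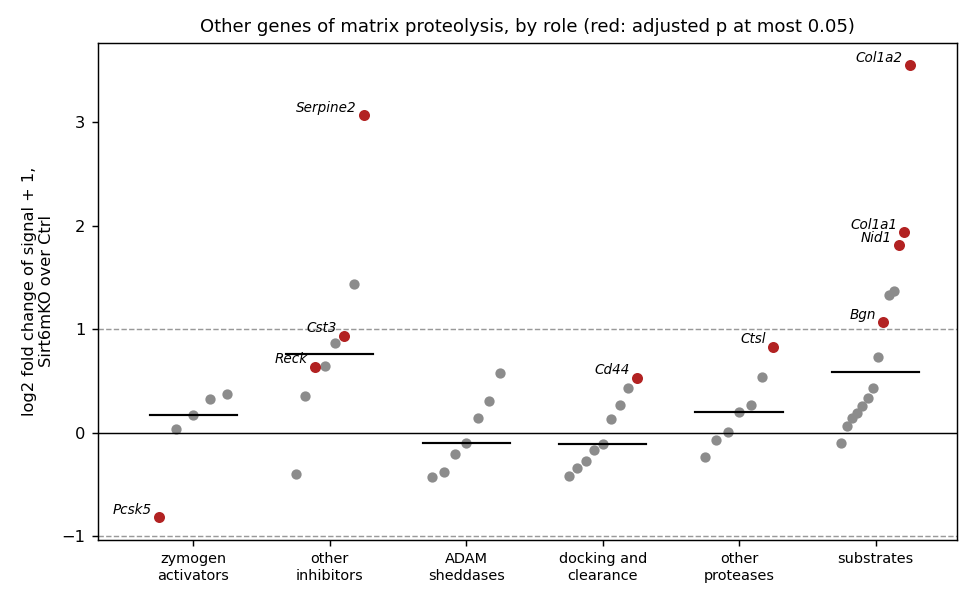
Log2 fold change of signal + 1 (Sirt6mKO over Ctrl) of the 50 tested genes around the Mmp, ADAMTS and Timp families, by role, with a bar at each median and red points at an adjusted p of at most 0.05. The medians of other inhibitors (0.76) and substrates (0.59) lie highest, those of ADAM sheddases (-0.10) and docking genes (-0.11) below 0.

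Some marker lists of other cells were also higher in Sirt6mKO, and others were not. *Col1a1* and *Dcn* are in both the substrate and the fibroblast list, and *Comp* is in both the substrate and the tendon cell list. These lists are therefore not independent. The summed signal of 9 fibroblast markers was 1454, 2108 and 1966 in Sirt6mKO and 1452, 928 and 706 in Ctrl, mostly from *Dpt* and *Col1a1*. Of its 6 tested genes 2 were called higher (*Pdgfra* and *Col1a1*), beside 1.57% of all tested genes. The median log2 fold change of the 6 was 1.61. *Ly6a*, *Pi16* and *Mfap5* were at or near 0 throughout. The sum of 7 tendon cell markers was 61, 1110 and 421 in Sirt6mKO and 51, 75 and 52 in Ctrl. In Sirt6mKO replicates 2 and 3 most of it came from *Fmod* (481 and 163) and *Thbs4* (508 and 191). Of these 7, 0 were called, and their median log2 fold change was 2.71. *Mkx* went the other way (log2 fold change -1.12, limma adjusted p = 0.37). *Tnmd*, *Comp* and *Kera*, and *Smoc2* of the fibroblast list, reached the required mean signal only through Sirt6mKO. The tendon cell sum of Sirt6mKO replicate 1 was at the level of Ctrl, although *Scx* was highest in that library (33). The sum of 6 myofiber markers was 1210, 1392 and 303 in Sirt6mKO and 268 to 294 in Ctrl. Of these 6, 2 were called higher, beside 1.57% of all tested genes. For the myofiber markers Sirt6mKO replicate 3 was near the Ctrl libraries. The 7 mural cell markers summed to 4327 to 5400 in Sirt6mKO and 2782 to 3839 in Ctrl, mostly from *Notch3*, which MuSCs express as well, and 0 of 6 tested were called. *Abcc9* of this list was lower in every Sirt6mKO library than in any Ctrl library (log2 fold change -1.10, limma adjusted p = 0.098). The 5 Schwann cell markers summed to 85 to 149 in Sirt6mKO and 111 to 155 in Ctrl, and 0 of 4 tested were called. The part of such cells in the differences of *Mmp2*, *Timp3*, *Adamts12* and *Adamtsl1* was not tested. Of the 9 MuSC markers 1 was called lower (*Chrdl2*, log2 fold change -1.10), beside 1.02% of all tested genes. At the adjusted p alone *Pax7* (-0.84, limma adjusted p = 0.0041) and *Myod1* (-0.86, 0.045) were also lower and *Cd34* (0.60, 0.031) was higher, and the other 5 did not pass. Of all tested genes 1.88% were lower and 2.64% higher at that threshold.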

How the data were processed

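RNA-seq of 3 Sirt6mKO and 3 Ctrl MuSC libraries was used, grouped by their labels. According to the methods, the authors aligned reads to mm10 (GRCm38) with STAR, summed those on exons per gene with featureCounts, without reads that hit several genes or regions, and tested them with DESeq2. The submitters' processing notes name Trimmomatic 0.39, STAR 2.7.10a, Picard 2.25.5, featureCounts 2.0.2 and DESeq2 1.30.1. For library preparation the methods name RiboMinus and an Ion Total RNA-Seq kit and the labels RiboGone and a SMARTer stranded kit. Whether strand was used in counting is not stated.

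The deposited signal values carry no unit in the file. They are whole numbers but not counts, since the authors had scaled the reads of every gene by 1 size factor per library before rounding. Factors (0.558 to 1.37) were estimated from how often each low value occurs. Only Ctrl replicates 1 and 3, the 2 libraries with a factor under 1, had gaps among the low values (11 and 27 values not used). At their factors at least 99.2% of the low values can be reached from whole reads. In the other libraries every low value can be reached, which does not check their factors or read numbers. A gene with no reads has a limit of 3 reads, for counting error only. Division by exon length gave signal per kb.

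The genes that reached a mean signal of 5 were fitted on log2(signal + 1) with limma-trend (limma 3.58.1, R 4.3.3) without further scaling. The added 1 understates the change of low genes. Adjusted p-values are Benjamini-Hochberg over all 14227 tested genes. The thresholds (2-fold, adjusted p of 0.05, mean of 5) are those of the methods. The procedure was tested on simulated data. Python 3.11.15 (pandas 2.3.3, matplotlib 3.10.9) served for tables and plots.

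Members named are *Mmp2* and the *Timp* genes, those past the adjusted p, those with separate groups, and the 10 highest per kb, and other genes of the pathway that were called or were the most abundant of their role. *Pcsk5*, *Reck*, *Cd44*, *Ctsl* and the other members and markers named were chosen after their values were seen. The members and lists were chosen with earlier results of these data known. Gene positions came from GENCODE M21, in which all 40 members had the same start and end. The labels do not say that libraries of a group came from separate mice, and the statistics section calls RNA-seq replicates biological.

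Alternatives were median-ratio and trimmed-mean scaling, pseudocounts of 0.5 and 5, a mean of at least 1 or 50 or no filter, the replicate number as a block, limma voom on the rounded reads, robust empirical Bayes, and leaving out each library.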

Additional observations from a re-analysis of the deposited data

How the results depend on the processing

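*Mmp2*, *Timp3*, *Adamts12* and *Adamtsl1* passed the adjusted p with the same direction under all 16 alternatives, with log2 fold changes of -0.92 to -0.77, 0.82 to 1.16, -1.04 to -0.75 and -2.76 to -1.94. Leaving out each library in turn gave 0 to 1 members called higher (1, *Timp3*, without Sirt6mKO replicate 1, Sirt6mKO replicate 2 or Ctrl replicate 1), 1 to 2 called lower, 1 to 2 higher and 3 to 4 lower at the adjusted p alone, 2 to 7 pathway genes called higher, 0 to 5 marker genes higher and 0 to 2 lower. Over the same fits the median log2 fold change was 0.19 to 0.54 for Mmp, -0.33 to -0.19 for Adamts, -0.14 to 0.36 for Adamtsl and 0.49 to 0.82 for Timp genes. With a mean of at least 1 the Mmp median was 0.11 and the Timp median 0.94, with no filter 0.0 and 0.94, and with a mean of at least 50 the Mmp median was -0.20 and the Adamtsl median -1.15, since other genes were tested. Robust empirical Bayes called 2 pathway genes and 2 marker genes higher, limma voom 2 marker genes, no filter 1 and a mean of at least 50 called 0. Values close to 0 changed sign in *Adamts10* (-0.18 to 0.15), *Adamts1* (-0.039 to 0.14), *Adamts5* (-0.087 to 0.28) and *Col3a1* (-0.087 to 0.20) when single libraries were left out, and the cause was not tested. Over all genes 223 were called higher and 145 lower, 76 and 52 at a mean of at least 50, 101 and 84 without Sirt6mKO replicate 1, 97 and 96 without Sirt6mKO replicate 2, and 159 and 90 without Ctrl replicate 2. At 1267027 reads, the depth of Ctrl replicate 3, members with few reads are not resolved.

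The replicate numbers of the 2 groups did not pair the libraries, as the deviations of same-numbered libraries from their group means correlated at 0.023, 0.066 and 0.19. Of the 6 libraries 3 (both numbered 3 and Sirt6mKO replicate 2) correlated best with their own number. With the replicate number as a block 268 genes were called higher and 167 lower, 8 marker genes were called higher, and the calls of the members were the same.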
